A study of Mus musculus with 4 samples.

Results

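Collagen chain genes were examined in the gastrocnemius, the large calf muscle, of the mouse. They were chosen by symbol alone, as every gene row whose name has the form Col, a type number, the letter a and a chain number. This gave 44 of 23282 rows, 1 row per symbol, from 27 collagen types. By type number they were divided into 9 fibrillar genes (types 1, 2, 3, 5 and 11), 8 basement membrane genes (types 4, 15 and 18), 6 type 6 genes and 21 others.

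The design crossed 2 factors, high-intensity treadmill running (E) and a tumor (T), in male CDF1 mice, with 10 mice per group. Each of the groups is a single sample in the labels, with 1 library. The normal control, E(-)T(-), and cancer control, E(-)T(+), did not run, while normal exercise, E(+)T(-), and cancer exercise, E(+)T(+), did. Tumors were raised with CT26, a colorectal carcinoma line of the mouse, given into the tail vein. The study describes a spread of the cancer through the body, and saw no tumor growth in the gastrocnemius of the cancer exercise mouse. Whether the muscle samples held CT26 cells was not tested. The results text of the study speaks of 1 representative mouse per group, and it was not settled if each library stands for 1 animal or pooled animals. The labels give postnatal day 28 as the age, which by the methods is close to the age at purchase and precedes the training and tumor period. All groups share the strain, and neither the labels nor the methods name a transgene or deletion.

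Collagens are secreted proteins built from 3 chains wound into a triple helix. Types 1 and 3 form the thick fibrils of tendon and of the connective tissue sheaths of muscle, and types 5 and 11 are minor chains laid down with them. Type 4 forms the sheet-like network of the basement membrane that wraps each muscle fibre and each capillary. Type 6 forms beaded filaments that join that sheet to the surrounding matrix, and loss of its chains causes muscular dystrophy in people. In skeletal muscle most fibrillar chains are made by resident fibroblasts and by tendon cells, while type 4 chains are also made by endothelial cells and muscle cells.

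Reads came from the 3′ ends of transcripts, so that a read count does not scale with gene length and the counts of different genes were set side by side as counts of transcript ends. The levels given are normalized read counts, taken from the deposited log2 values, and whole reads were rebuilt from the steps in those values. Runs of 4 values give the healthy libraries first and the tumor libraries after them, each time without exercise and then with it. The libraries held 10647440 to 13226142 reads. Of the 44 collagen genes, 42 had reads in at least 1 library, 37 reached a level of 4 in some library and 30 reached 16. Col10a1, a cartilage growth plate collagen, and Col25a1, a transmembrane collagen needed for muscle innervation, had 0 reads in every library, which allows a share of up to 2.27e-05% to 2.82e-05% of the reads. Nt5dc1, with up to 131 reads, overlaps the last 1 kb of Col10a1 on the other strand. How reads in such an overlap were counted is not given in the sources used here. Each group is 1 library, so no difference has a replicate check. Intervals are 95% Clopper-Pearson intervals of the ratio of reads and cover counting error only.

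All libraries had the transcripts of fast skeletal muscle fibres at high level, where 8 fibre genes summed to 71781 to 120596 CPM (reads scaled to a library of 1000000), among them Acta1, Ckm and Myh4. The cancer control library stood apart in one respect. All 10 genes of a keratinocyte and skin list had reads there, with a sum of 73.8 CPM, against 9.7 to 19.4 in the others, in which 6 or 7 of the 10 were at 0. Flg2, which encodes an epidermal protein, had 148 reads there and 0 elsewhere. Since the cancer control library enters both the tumor comparison without exercise and the exercise comparison in tumor-bearing mice, the part of these skin transcripts in those results was not tested.

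Promoters are shown for genes at the ends of the range described below. Col1a2 and Col3a1 encode chains of the major fibrils, which were far lower in the tumor libraries, and Col4a1 and Col4a2 encode the main basement membrane chains, which changed little. The windows run from 250 bases before to 50 after the start listed for the promoter, which for Col4a1 lies inside the gene span given below. They are written 5′ to 3′ on the strand of the gene and come from RefSeq on GRCm38.p6, the assembly of mm10. They lie at chr6:4505368-4505667 (plus strand) for Col1a2, chr1:45311288-45311587 (plus strand) for Col3a1, chr8:11312777-11313076 (minus strand) for Col4a1 and chr8:11312555-11312854 (plus strand) for Col4a2. Capitals mark, on either strand, CCAAT, the sequence bound by factor NF-Y, the letters TATAA of the TATA box, and GGGCGG, the core of the sites of Sp1.
Col1a2: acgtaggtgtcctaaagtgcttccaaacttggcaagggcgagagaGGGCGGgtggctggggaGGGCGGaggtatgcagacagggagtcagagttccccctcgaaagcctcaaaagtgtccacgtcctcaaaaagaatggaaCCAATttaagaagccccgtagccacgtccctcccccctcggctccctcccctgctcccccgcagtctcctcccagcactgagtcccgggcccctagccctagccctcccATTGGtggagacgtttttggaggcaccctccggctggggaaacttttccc
Col3a1: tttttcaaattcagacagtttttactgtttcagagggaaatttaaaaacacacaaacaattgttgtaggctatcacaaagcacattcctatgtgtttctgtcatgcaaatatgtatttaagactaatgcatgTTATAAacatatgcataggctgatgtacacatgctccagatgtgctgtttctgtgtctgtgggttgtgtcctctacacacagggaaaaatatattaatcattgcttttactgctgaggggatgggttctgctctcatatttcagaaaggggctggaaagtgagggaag
Col4a1: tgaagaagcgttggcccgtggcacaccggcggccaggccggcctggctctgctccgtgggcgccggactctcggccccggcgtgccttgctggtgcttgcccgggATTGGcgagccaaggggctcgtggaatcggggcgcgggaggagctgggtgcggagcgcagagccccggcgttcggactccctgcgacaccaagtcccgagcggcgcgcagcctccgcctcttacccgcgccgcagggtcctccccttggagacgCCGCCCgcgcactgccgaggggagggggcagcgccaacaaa
Col4a2: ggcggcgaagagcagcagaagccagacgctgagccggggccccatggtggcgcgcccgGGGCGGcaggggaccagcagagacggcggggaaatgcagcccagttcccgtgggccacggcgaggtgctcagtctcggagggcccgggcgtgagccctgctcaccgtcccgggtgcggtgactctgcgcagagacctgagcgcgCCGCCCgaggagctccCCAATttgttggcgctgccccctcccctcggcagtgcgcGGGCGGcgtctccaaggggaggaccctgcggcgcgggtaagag
The window of Col1a2 held CCAAT at 2 places and GGGCGG at 2, that of Col3a1 held TATAA on both strands at 1 overlapping place, and those of the type 4 genes each held CCAAT at 1 place, together with GGGCGG at 1 place (Col4a1) or 3 (Col4a2). The G and C content was 61.0% for Col1a2, 37.7% for Col3a1, 74.0% for Col4a1 and 73.7% for Col4a2. Col4a1 and Col4a2 lie head to head on opposite strands, and their windows share 78 bases. Col3a1 and Col5a2 are also neighbours, on chromosome 1 with facing 3′ ends 24625 bases apart. Promoters were listed for 35 of the 44 collagen genes, 38 windows in all. GGGCGG or its complement was present in 60.5% of these windows and in 35.7% of all 32851 promoters, CCAAT in 34.2% and 37.4%, and TATAA in 18.4% and 24.9%. The median G and C content was 59.8% for the collagen windows and 52.7% for all promoters, and its part in the share holding GGGCGG was not tested. These matches are a description of letters and do not show a bound site.

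Collagen genes took 0.359% of all reads in normal control (95% interval 0.355 to 0.362) against 0.0991% in normal exercise (0.0975 to 0.101), and 0.0412% in cancer control (0.0400 to 0.0425) against 0.0579% in cancer exercise (0.0564 to 0.0593). Normal control was thus far above the other 3 libraries, and the lowest share was that of cancer control. In bulk tissue, fewer cells of a type and less RNA per cell cannot be told apart. The difference was uneven among the types. Fibrillar genes had 2828 CPM in normal control against 526 in normal exercise, and 95.3 in cancer control against 174 in cancer exercise. Type 4 genes had 263, 187, 231 and 282 CPM in the same order. The fibrillar sum therefore ranged widely over the libraries, whereas that of type 4 stayed within a narrow band and was highest in cancer exercise.

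**Figure D1:**
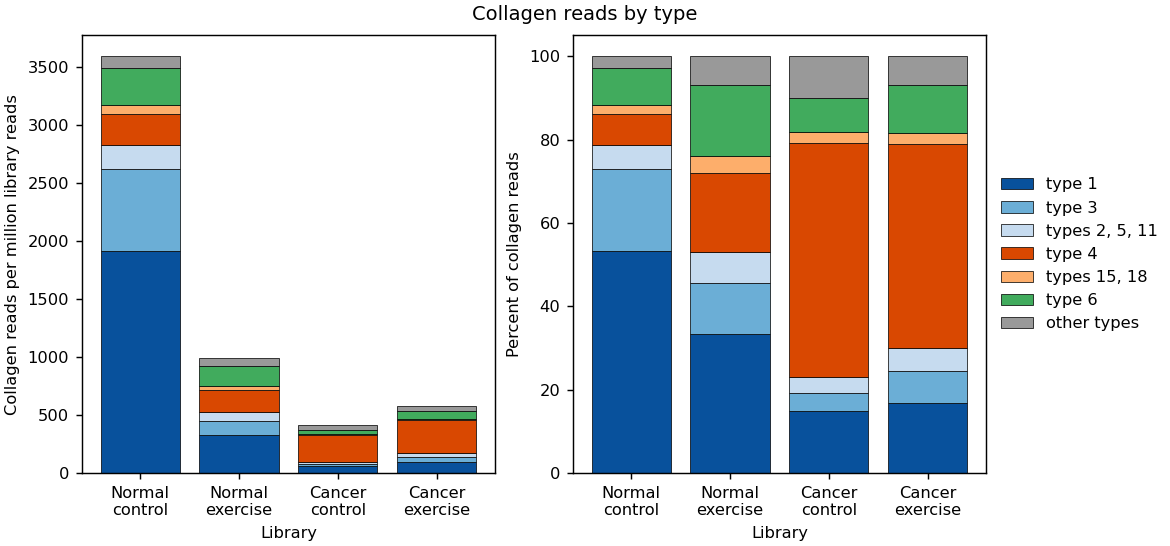
Stacked bars of collagen reads in the 4 libraries, as CPM (left) and as percent of the collagen reads of the library (right), coloured by collagen type. Types 1 and 3 make up 72.8% of collagen reads in normal control against 19.4% in cancer control, while type 4 makes up 7.34% and 56.0%.

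The make-up of the collagen reads also differed between libraries. Types 1 and 3, the main fibril-forming collagens, accounted for 72.8% of collagen reads in normal control (72.4 to 73.3) against 45.6% in normal exercise (44.8 to 46.5), and 19.4% in cancer control (18.2 to 20.6) against 24.4% in cancer exercise (23.4 to 25.5). Type 4 accounted for 7.34% (7.09 to 7.60), 18.9% (18.2 to 19.5), 56.0% (54.5 to 57.5) and 48.8% (47.6 to 50). The major collagen transcript of the muscle was thus of fibrillar type in both healthy libraries and of basement membrane type in both tumor libraries. Type 6 took 8.81%, 17.2%, 8.20% and 11.6%.

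A gene was counted as changed when it differed at least 2-fold between 2 libraries and one or both had a level of 4 or more. With exercise in healthy mice (normal exercise against normal control), 20 collagen genes were lower and 2 higher, of 36 that met the minimum. Among all 14518 rows that met it, 12.1% were lower and 9.44% higher, 21.5% in all. With the tumor and no exercise (cancer control against normal control), 25 were lower and 4 higher of 37, against 24.2% and 20.9% of 14818 rows, 45.1% in all. In both comparisons, which share the normal control library, the share of collagen genes that were lower exceeded that of all rows.

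With exercise in tumor-bearing mice (cancer exercise against cancer control), 12 collagen genes were higher and 7 lower, of 33 that met the minimum. The background was 15.6% higher and 15.1% lower of 14491 rows, 30.6% in all. With the tumor in exercised mice (cancer exercise against normal exercise), 18 were lower and 1 higher of 31, against 16.3% and 13.9% of 14470 rows, 30.3% in all. The counting interval spanned 0 for 3 of the 22 changed genes in the first comparison, 4 of 29 in the second, 4 of 19 in the third and 2 of 19 in the fourth. Each of these had at most 11 reads in either library, and Col17a1 was among them every time.

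**Figure D2:**
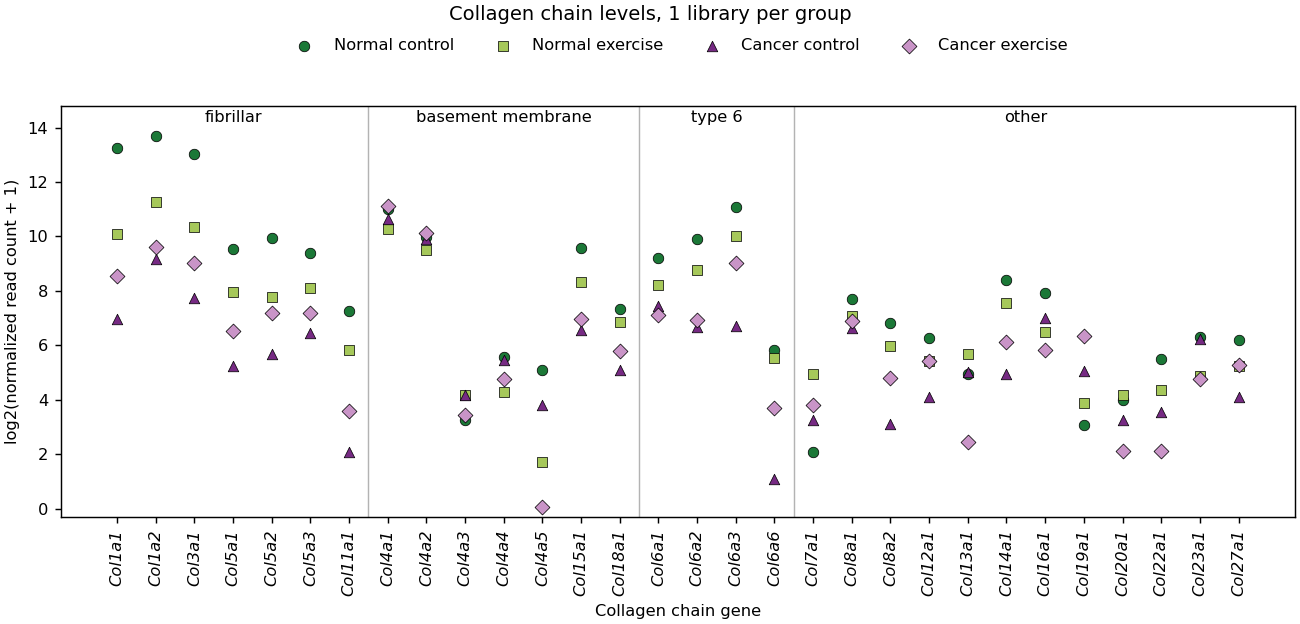
Level of the 30 collagen genes that reached a level of 16 in some library, as log2 of the normalized read count plus 1 (vertical axis), in the order fibrillar, basement membrane, type 6 and other (horizontal axis). Each symbol is 1 library. All 7 fibrillar genes shown have both tumor libraries below both healthy libraries, while Col4a1 and Col4a2 lie close together in all 4.

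The fibrillar genes carried most of the difference. Col1a1, on chr11:94936224-94953042, encodes the first chain of type 1 collagen, the main protein of tendon and fibrous tissue. Its level was 9741 in normal control against 1096 in normal exercise, and 124 in cancer control against 377 in cancer exercise. Its log2 difference was -3.15 (-3.24 to -3.07) with exercise in healthy mice against -6.28 (-6.57 to -6.03) with the tumor without exercise. With exercise in tumor-bearing mice it was 1.59 (1.29 to 1.92), and with the tumor in exercised mice -1.54 (-1.71 to -1.37). Normal control was highest and cancer control lowest, and all 4 differences exceeded 2-fold.

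Col1a2, on chr6:4505618-4541543, encodes the partner chain of the same molecule. It was the most abundant collagen transcript in both healthy libraries, at 13178 in normal control against 2453 in normal exercise, and stood at 574 in cancer control against 789 in cancer exercise. The log2 difference was -2.43 (-2.48 to -2.37) with exercise in healthy mice, then -4.52 (-4.65 to -4.40) with the tumor without exercise and -1.64 (-1.76 to -1.52) with it in exercised mice. Unlike Col1a1 it did not reach 2-fold with exercise in tumor-bearing mice, where it was 0.46 (0.30 to 0.62). The difference between these partner chains is taken up below with their ratio.

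Col3a1, on chr1:45311538-45349706, encodes the fibrillar collagen of more pliable tissue and is made together with type 1. Its level was 8421 in normal control against 1300 in normal exercise, and 212 in cancer control against 523 in cancer exercise. The order of the libraries was that of Col1a1, with log2 differences of -2.70 (-2.77 to -2.62) with exercise and -5.31 (-5.52 to -5.11) with the tumor against normal control. It was 1.30 (1.06 to 1.55) higher with exercise in tumor-bearing mice on the same log2 scale.

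Type 5 collagen starts and limits the width of type 1 fibrils. Col5a2, the second type 5 chain, had levels of 995 in normal control against 215.5 in normal exercise, and 50.4 in cancer control against 144 in cancer exercise. Col5a1, the first chain, stood at 739, 249, 36.5 and 92.1, and Col5a3, the third, at 666, 272, 86.8 and 145. In all 3 chains normal control was highest and cancer control lowest. With the tumor without exercise the log2 difference was -4.28 for Col5a2, -4.30 for Col5a1 and -2.93 for Col5a3, and the interval of Col5a3 (-3.29 to -2.60) did not meet those of the other chains. With exercise in tumor-bearing mice Col5a2 was higher by 1.497 (1.03 to 2.03) and Col5a1 by 1.31 (0.75 to 1.96), while Col5a3 at 0.74 (0.33 to 1.16) stayed under 2-fold.

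Col11a1, a minor fibrillar chain typical of cartilage and also present in tendon, followed at a lower level. It had 144 reads in normal control against 68 in normal exercise, and 3 in cancer control against 10 in cancer exercise. Its log2 difference was -1.46 (-1.91 to -1.05) with exercise in healthy mice against -5.17 (-7.87 to -4.00) with the tumor without exercise. The rise with exercise in tumor-bearing mice rests on few reads, and its interval spanned 0 (-0.20 to 4.25). Col2a1, the main cartilage collagen, had 4 reads in normal control and 0 elsewhere, and Col11a2 had at most 3 reads in any library. Of 9 genes of a cartilage and bone list, 4 had reads in some library. Acan, Matn1 and Hapln1, which mark cartilage, had 0 reads in every library. Sox9, on the same list, had 201, 192, 147 and 236 reads, and Runx2 had 3, 5, 21 and 14.

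Over the 7 fibrillar genes with a mean level of 16 or more, the median log2 difference was -2.20 with exercise in healthy mice against -4.52 with the tumor without exercise. It was 1.31 with exercise in tumor-bearing mice and -1.42 with the tumor in exercised mice. Over the 12055 rows of the whole table with such a mean the medians were 0.004, -0.04, 0.02 and -0.02. In each of the 7 genes both tumor libraries lay below both healthy libraries. That was so in 17 of the 26 collagen genes with such a mean, and in 28.9% of the 12055 rows. The order was present in 4 of 4 type 6, 2 of 5 basement membrane and 4 of 10 other genes. In the same order of comparisons the class medians were -1.03, -3.80, 1.28 and -1.47 for type 6, -0.74, -0.36, 0.37 and 0.47 for the basement membrane genes and -0.84, -1.51, 0.72 and -0.43 for the others.

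**Figure D3:**
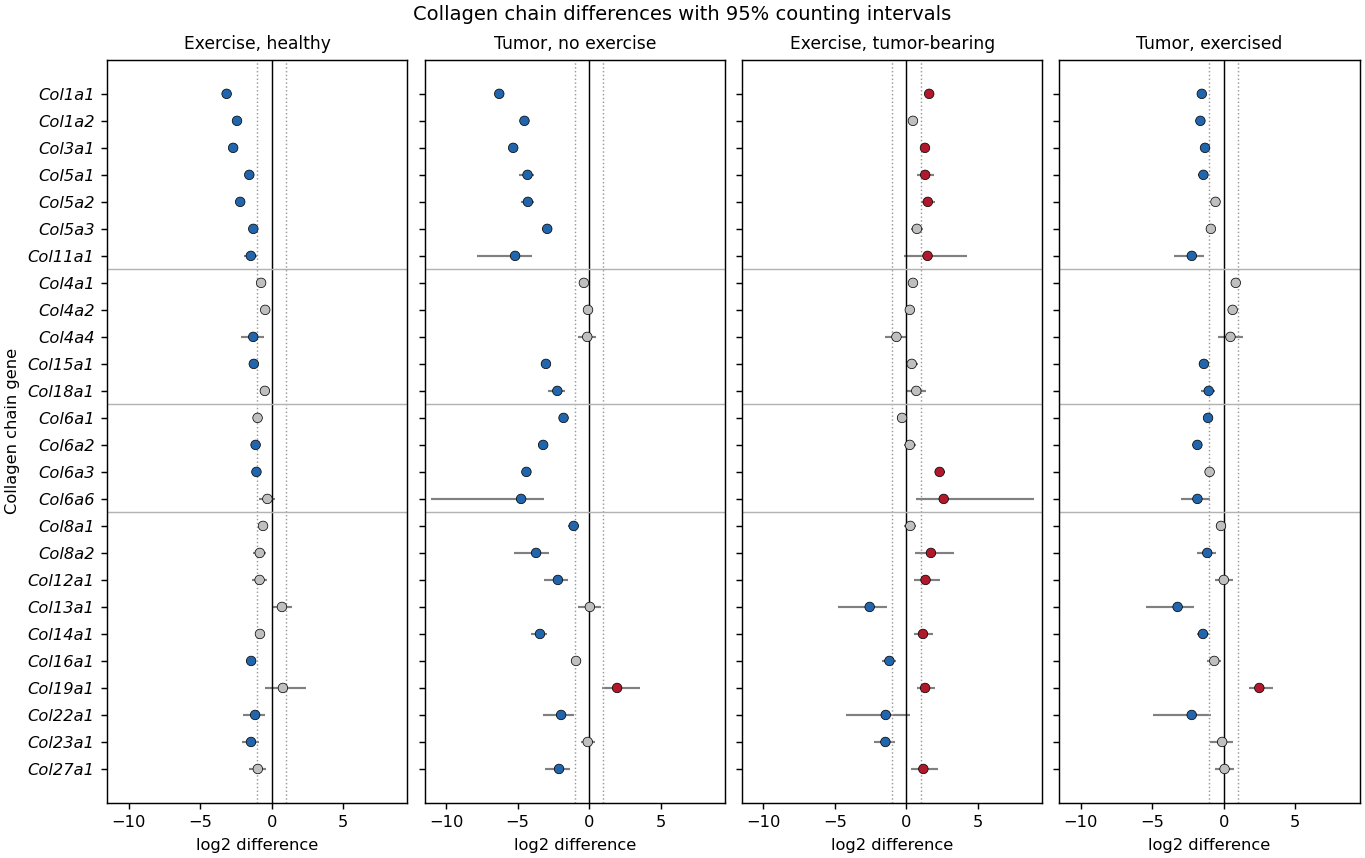
Log2 difference of the 26 collagen genes with a mean level of 16 or more in the 4 comparisons (panels), with horizontal lines for the 95% counting intervals of the read ratio. Blue points are at least 2-fold lower, red points at least 2-fold higher and grey points within 2-fold, and dotted lines mark 2-fold. All 7 fibrillar genes are blue in the first and second panels, and 5 of them are red in the third.

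The basement membrane genes did not move as one. Col4a1 and Col4a2, on chr8:11198423-11312889 and chr8:11312805-11449287, encode the chains of the common type 4 network. Col4a1 had levels of 2070 in normal control against 1239 in normal exercise, and 1611 in cancer control against 2215 in cancer exercise. It was the most abundant collagen transcript in both tumor libraries. Col4a2 stood at 996, 727, 948 and 1119. No comparison took either gene past 2-fold. The log2 differences of Col4a1 were -0.74 (-0.84 to -0.64) with exercise in healthy mice, then -0.36 (-0.46 to -0.26) with the tumor without exercise, 0.46 (0.36 to 0.56) with exercise in tumor-bearing mice and 0.84 (0.74 to 0.94) with the tumor in exercised mice. Those of Col4a2 were smaller, at -0.45, -0.07 (with an interval of -0.21 to 0.06), 0.24 and 0.62. Gm15418 overlaps the last 1 kb of Col4a1 on the other strand.

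The other type 4 chains, which form the specialised networks of kidney, lung and other tissues, were sparse. Col4a4 had 44 reads in normal control against 23 in normal exercise, and 40 in cancer control against 24 in cancer exercise. It was at least 2-fold lower with exercise in healthy mice, at -1.29 (-2.12 to -0.57), and within 2-fold in the other comparisons. Its head-to-head neighbour Col4a3 had 8, 21, 16 and 9 reads and was within 2-fold throughout. Col4a5, an X-linked chain mutated in Alport syndrome, had 31, 3, 12 and 0 reads. It was lower with exercise in healthy mice at -3.36 (-6.11 to -2.08), and at least 3.96-fold lower with exercise in tumor-bearing mice when 0 is set at a floor of 3 reads, where the interval of the log2 ratio reached up to -1.46. Its difference was -1.29 (-2.46 to -0.36) when only the tumor was added. So both exercised libraries were below their untrained counterparts for Col4a5. Col4a6 had 3 reads in normal control and 0 in the others.

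Types 15 and 18 are proteoglycan collagens at the outer face of the basement membrane, and their ends can be cut off as anti-angiogenic fragments, endostatin in the case of type 18. Both had the library order of the fibrillar genes, with normal control highest and cancer control lowest. Col15a1 had levels of 769 in normal control against 323 in normal exercise, and 94.3 in cancer control against 122.5 in cancer exercise. The log2 difference was -1.25 (-1.43 to -1.07) with exercise in healthy mice, then -3.01 (-3.36 to -2.71) with the tumor without exercise and -1.39 (-1.71 to -1.09) with the tumor in exercised mice. Col18a1 stood at 158.5, 114, 33.2 and 54.2, with -0.48 (-0.82 to -0.14), -2.22 (-2.86 to -1.69) and -1.05 (-1.56 to -0.59) for the same comparisons. Slc19a1 overlaps the last 1 kb of Col18a1 on the other strand, and the strand handling of the counting is not given in the sources used here.

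Type 6 is put together from chains of Col6a1, Col6a2 and Col6a3, the chain of Col6a6 being able to stand in for the third. Col6a3, on chr1:90766860-90844001, had levels of 2185 in normal control against 1043 in normal exercise, and 104 in cancer control against 524 in cancer exercise. The cancer control library was by far the lowest, with a log2 difference of -4.38 (-4.70 to -4.10) from normal control. Against it, cancer exercise was higher by 2.32 (2.02 to 2.67), and against normal exercise it was at -0.99 (-1.15 to -0.84). Col6a2 stood at 950.5, 435, 102 and 120, with -3.21 (-3.55 to -2.92) for the tumor without exercise and 0.24 (-0.17 to 0.65) for exercise in tumor-bearing mice. Col6a1 stood at 592.5, 298, 171 and 139, with -1.78 (-2.05 to -1.53) and -0.30 (-0.65 to 0.04). The 3 chains were thus lower together with the tumor, by unequal amounts, and only Col6a3 among them differed 2-fold between the tumor libraries.

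With exercise in healthy mice these chains lay close together, at -1.07 for Col6a3, -1.13 for Col6a2 and -0.99 for Col6a1. These values sit at the 2-fold line. The 3 type 6 genes counted as lower were Col6a2, Col6a3 and the scarce Col6a4, while Col6a1 fell just short. Under total count scaling, which moved the median of all rows by 0.16, Col6a2 (-0.965) and Col6a3 (-0.905) no longer passed. Only 1 type 6 gene then did, Col6a4. Col6a6 had 53 reads in normal control against 56 in normal exercise, and 1 in cancer control against 11 in cancer exercise. Its log2 difference with the tumor without exercise was -4.75 (-11.05 to -3.18), and with exercise in tumor-bearing mice 2.61 (0.69 to 8.90). Col6a4 had 6 reads in normal control and 0 elsewhere, and Col6a5 had 0, 1, 7 and 3 reads.

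**Figure D4:**
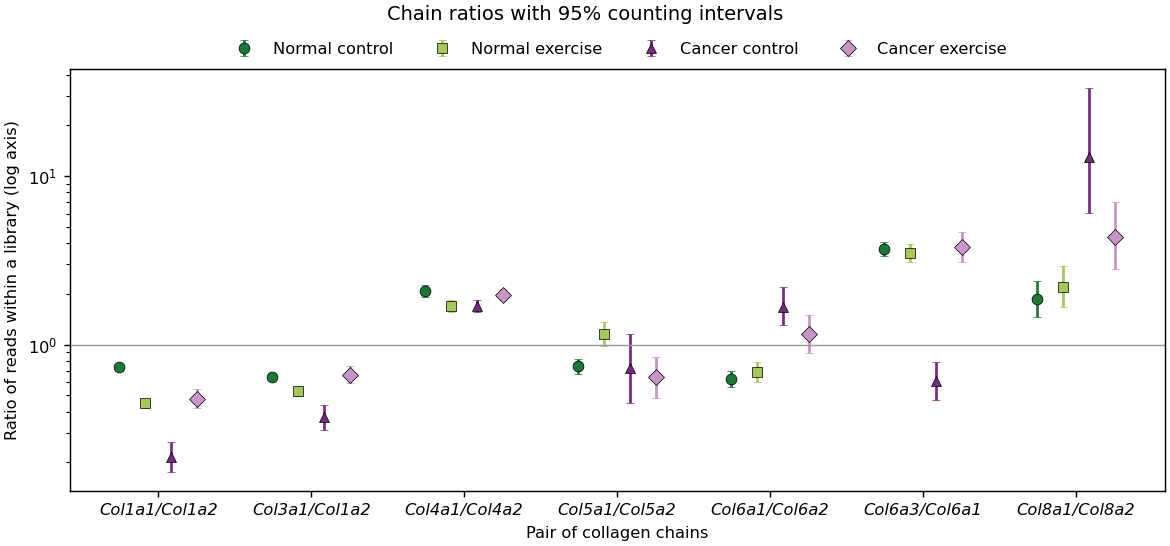
Ratio of the reads of one collagen chain to those of another in the same library (vertical axis, log scale) for 7 pairs (horizontal axis), with 95% counting intervals. Each symbol is 1 library. The ratio of Col6a3 to Col6a1 is 0.606 in cancer control and 3.50 to 3.78 in the other libraries, while that of Col4a1 to Col4a2 stays between 1.70 and 2.08.

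Ratios within a library do not depend on how the libraries are scaled. Type 1 collagen holds a pair of Col1a1 chains for each Col1a2 chain, so the balance of these transcripts was compared. There were 0.739 Col1a1 reads per Col1a2 read in normal control (0.719 to 0.759) against 0.447 in normal exercise (0.419 to 0.477), and 0.216 in cancer control (0.176 to 0.265) against 0.478 in cancer exercise (0.419 to 0.544). The intervals of normal exercise and cancer exercise overlapped, and those of normal control and cancer control lay on either side. The number of Col3a1 reads per Col1a2 read was 0.639 (0.621 to 0.657), 0.530 (0.498 to 0.563), 0.369 (0.312 to 0.436) and 0.663 (0.590 to 0.745).

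The balance of Col6a3 with Col6a1 differed in a single library. There were 3.69 Col6a3 reads per Col6a1 read in normal control (3.36 to 4.06) against 3.50 in normal exercise (3.11 to 3.94), and 0.606 in cancer control (0.466 to 0.785) against 3.78 in cancer exercise (3.11 to 4.63). The ratio of Col6a1 to Col6a2 was 0.623 and 0.685 in the healthy libraries and 1.68 and 1.15 in cancer control and cancer exercise. Col4a1 reads per Col4a2 read numbered 2.08, 1.70, 1.70 and 1.98, the narrowest range of the 7 pairs plotted. For type 5 the ratio of Col5a1 to Col5a2 ran from 0.639 to 1.15, and that of Col5a3 to Col5a1 was 0.901 and 1.09 in the healthy libraries against 2.38 and 1.58 in the tumor libraries. Whether these ratios vary as much between mice of 1 group was not tested, since each group is 1 library.

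Among the remaining genes, several are fibril-associated collagens, which sit on the surface of type 1 fibrils. Col14a1, the most abundant of them, had levels of 334 in normal control against 189 in normal exercise, and 30 in cancer control against 68.3 in cancer exercise. Col12a1, a fibril-associated collagen of muscle and tendon whose mutation causes myopathy, stood at 76.5, 42.1, 16.1 and 42.3. Both were lower with the tumor without exercise, at -3.43 (-4.09 to -2.92) and -2.18 (-3.16 to -1.44), and higher with exercise in tumor-bearing mice, by 1.16 (0.52 to 1.88) and 1.34 (0.50 to 2.36). Col12a1 had nearly equal levels in both exercised libraries. Col16a1 stood at 240, 88.3, 127 and 55.3, and was lower with exercise both in healthy mice (-1.44, -1.79 to -1.11) and in tumor-bearing mice (-1.19, -1.71 to -0.72). Col22a1, a collagen of the muscle-tendon junction, had 42, 24, 10 and 3 reads.

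Col19a1, a rare basement membrane-associated collagen, went the other way. It had 7 reads in normal control against 17 in normal exercise, and 30 in cancer control against 75 in cancer exercise. The log2 difference was 1.96 (0.89 to 3.54) with the tumor without exercise, 1.31 (0.71 to 2.0) with exercise in tumor-bearing mice and 2.49 (1.79 to 3.41) with the tumor in exercised mice. It was the 1 gene among the 26 with both tumor libraries above both healthy ones, an order found in 27.3% of the 12055 rows. Col7a1, the anchoring fibril collagen of the skin, had 3, 36, 8 and 12 reads, with 2.85 (1.53 to 5.54) for exercise in healthy mice and -1.12 (-2.25 to -0.19) for the tumor in exercised mice. With the tumor without exercise it was at 1.18 (-0.63 to 3.97). Its highest level was in normal exercise, and the part of skin transcripts in its reads was not tested. Col17a1, which anchors keratinocytes, had 0, 5, 4 and 0 reads.

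The short-chain network collagens of type 8, made by endothelial and other vessel cells, differed from each other. Col8a1 had levels of 206 in normal control against 135 in normal exercise, and 97.5 in cancer control against 118 in cancer exercise, a narrower range than that of its partner. Col8a2 stood at 110.5, 61.6, 7.56 and 27.1, with a log2 difference of -3.70 (-5.23 to -2.79) with the tumor without exercise against -1.07 (-1.46 to -0.72) for Col8a1. Among the transmembrane collagens, Col13a1, which helps the neuromuscular junction mature, had 28, 61, 29 and 4 reads. It was lower in cancer exercise than in cancer control at -2.57 (-4.81 to -1.33) and than in normal exercise at -3.23 (-5.43 to -2.08). Col23a1 had 74, 35, 69 and 24 reads, lower in both exercised libraries, at -1.45 (-2.10 to -0.87) in healthy and -1.47 (-2.24 to -0.82) in tumor-bearing mice. Col27a1, a fibril-forming collagen of cartilage grouped here with the others by its type number, had 68, 45, 15 and 35 reads. Col20a1 had 14, 21, 8 and 3 reads and Col24a1 had 14, 1, 4 and 3. Col9a1 had 11 and 5 reads in the healthy libraries without and with exercise and 0 in the tumor libraries, and Col9a2, Col9a3, Col26a1 and Col28a1 had at most 5 reads in any library.

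The exercise comparisons in healthy and in tumor-bearing mice share no library, and the study set them against each other. Of the 26 collagen genes with a mean level of 16 or more, 19 were lower with exercise in healthy mice and higher with exercise in tumor-bearing mice, by any amount. Of the 12055 rows with such a mean, 26.4% had this pattern. By class it was seen in 7 of 7 fibrillar, 4 of 5 basement membrane, 3 of 4 type 6 and 5 of 10 other genes. Past 2-fold in both comparisons, 6 genes were lower and then higher (Col1a1, Col3a1, Col5a1, Col5a2, Col11a1 and Col6a3) and 1, Col17a1, was higher and then lower, while 4 moved the same way (Col4a5, Col16a1, Col22a1 and Col23a1, all lower). Opposite directions were thus seen in 63.6% of the 11 collagen genes changed in both, against 51.6% of the 1307 such rows of the whole table. With so few genes the share in this count, which joins both directions, was near the background. Lower and then higher were 6 of the 11 genes, against 356 of the 1307 rows. The study chose Col1a1, Col3a1 and Col5a2 among its candidate genes on these libraries, so their part in the count is not independent. Cancer exercise stayed below normal control in every fibrillar gene, at 377 against 9741 for Col1a1. The tumor comparisons without and with exercise also share no library, and of the 17 collagen genes past 2-fold in both, 15 had the same sign. Opposite signs were found in 11.8% of these genes and in 19.5% of the 2606 such rows, so the share was near the background.

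The enzymes that modify and fold collagen were examined beside the chains. Of 14 genes for the hydroxylation and glycosylation of collagen chains, 7 were at least 2-fold lower and 1 higher with the tumor without exercise, where 24.2% of all rows were lower and 20.9% higher. P4hb, a prolyl hydroxylase subunit that also serves as a general disulfide isomerase, was the one higher, with levels of 1347 and 1376 in normal control and normal exercise, and of 2816 and 2849.5 in cancer control and cancer exercise. P4ha1 and P4ha2, the catalytic prolyl hydroxylase subunits, had log2 differences of -1.20 and -1.38 in that comparison. Colgalt2, a collagen galactosyltransferase, had the largest difference of the 14 there, at -7.00, with levels of 271, 208.5, 1.12 and 28.2. With exercise in healthy mice 1 of these 14 genes was lower and 1 higher. That is near the background of 12.1% lower and 9.44% higher among all rows. Their median log2 differences over the 4 comparisons, for the 12 with a mean level of 16 or more, were -0.27, -0.99, 0.31 and -0.22.

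Among 14 genes for folding, export and trimming of procollagen, 5 were lower and 0 higher in that comparison, beside the same background of 24.2% and 20.9%. Serpinh1, the collagen chaperone of the endoplasmic reticulum, had levels of 770, 487, 193 and 269. Pcolce, which aids removal of the C-terminal end of procollagen, had 1442, 851, 545 and 702. Both had the order of the fibrillar genes, over a narrower range. Adamts2, an enzyme that cuts off the opposite, N-terminal end, was at 451, 186, 599.5 and 245, lower in both exercised libraries. Tll2 had 0 reads in every library.

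Of 10 collagen receptors, 3 were lower and 2 higher with the tumor without exercise, which is near the background of 24.2% and 20.9%. Ddr2, a receptor kinase for fibrillar collagen, had levels of 1349, 1138, 525 and 561. Mrc2, which takes up collagen for breakdown, had 198, 101, 30 and 45.6, and Itga11, a fibroblast integrin for type 1 collagen, had 98.9, 110, 8.63 and 1.15. Itgb1, the shared integrin subunit, was at 2118, 1739, 2051 and 2146 and within 2-fold throughout. Among the 10 other components of the basement membrane, 3 were lower with the tumor without exercise, also near 24.2%, and 0 with the tumor in exercised mice, where the background was 16.3%. Nid1, which links laminin to type 4 collagen, stood at 1202.5, 695.5, 255 and 391, while Lama2, the main laminin chain of the muscle fibre, stood at 264, 274, 266 and 322. Of 11 genes for collagen transcription and transforming growth factor beta signalling, Ctgf was the 1 higher with the tumor without exercise, at 632, 889, 2179 and 1360.5. Scx, a tendon transcription factor that acts on Col1a1, was among the 3 lower, at 309, 190, 105 and 147. Tgfb1 was listed at 0 in every library.

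**Figure D5:**
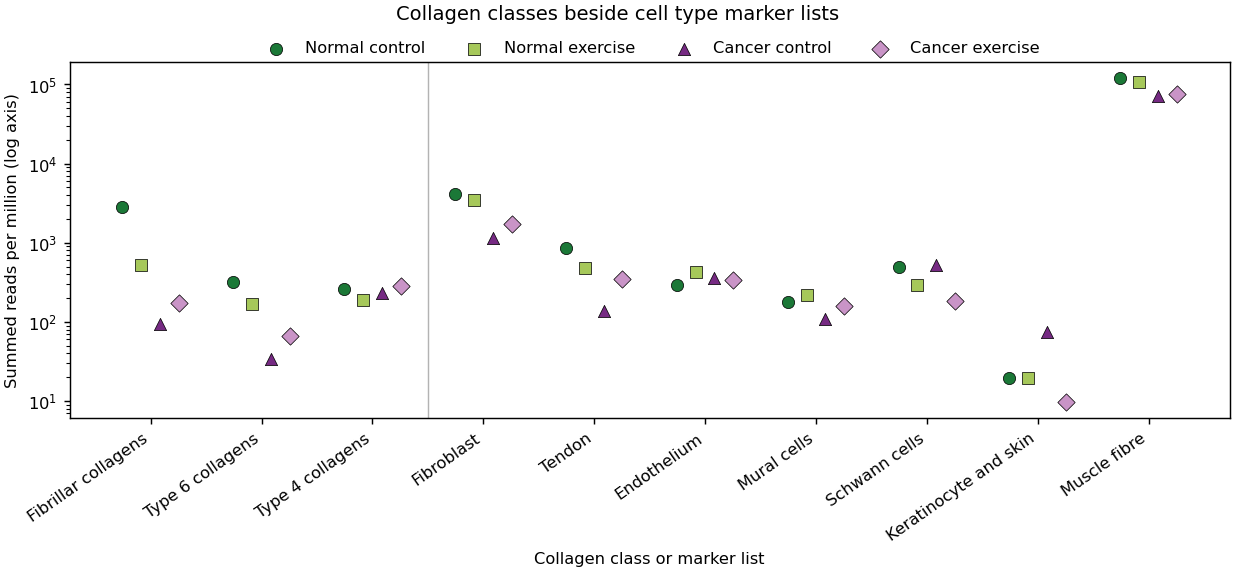
Summed CPM (vertical axis, log scale) of 3 collagen classes and of 7 lists of cell type marker genes (horizontal axis) in the 4 libraries (symbols). Fibroblast and tendon lists have the order of the fibrillar collagens, with normal control highest and cancer control lowest, while the endothelium list stays between 293 and 428.

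The summed fibroblast and tendon markers had the library order of the fibrillar genes. A list of 10 fibroblast genes summed to 4170 CPM in normal control against 3435 in normal exercise, and 1159 in cancer control against 1704 in cancer exercise. Most of this sum was Gsn, with 32453, 33036, 7517 and 11934 reads. With the tumor without exercise, 8 of the 10 were at least 2-fold lower, where 24.2% of all rows were lower. In healthy mice with exercise the median log2 difference of the list was -0.70. There 4 genes were lower, against 12.1% of all rows, which were Dpt (-1.35), Pi16 (-1.22), Lum (-1.09) and Mfap5 (-1.02). Pdgfra, the defining receptor of these cells, had 487, 474, 300 and 301 reads. A list of 8 tendon genes summed to 860, 479, 139 and 353 CPM. Most of this sum was Thbs4, with 5677, 4262, 1257 and 3429 reads. Tnmd, on the same list, had 723, 231, 14 and 10 reads and so was lowest in cancer exercise. With the tumor without exercise 7 of 8 were lower, beside the same background of 24.2%. Comp, Chad and Kera, which mark tendon, had 0 reads in cancer control, against 175, 321 and 457 in normal control. Of the 8 tendon genes, 5 were higher with exercise in tumor-bearing mice, where 15.6% of all rows were higher. The part of tendon and fibroblast content in the collagen results was not tested.

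The endothelial list, 7 genes of cells that make type 4 collagen, summed to 293, 428, 354 and 339 CPM. Of these, 0 of 7 differed 2-fold between normal control and normal exercise, between normal control and cancer control and between the tumor libraries. Among all rows, 21.5%, 45.1% and 30.6% differed 2-fold in these comparisons. With the tumor in exercised mice 1 of 7 was lower, Kdr, at -1.503, where 16.3% of all rows were lower. Pecam1 had 967, 1590, 1437 and 1495 reads. The mural cell list summed to 177, 221, 110 and 160, and the Schwann cell list to 491, 296, 522 and 183. The macrophage list had its highest sum in cancer control, at 447 against 258 in normal control. Of its 6 genes, 2 were at least 2-fold higher there, Cd68 and C1qa, where 20.9% of all rows were higher. The median log2 difference of the list was -0.12, so the higher sum was not shared by the list. The neuromuscular junction list, which bears on Col13a1, summed to 28.5, 42.7, 38.1 and 46.7 CPM. A cartilage and bone list had 1 gene with a mean level of 16 or more, Sox9.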

How the data were processed

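Gastrocnemius RNA of 4 groups, 1 library each, was sequenced from 3′ ends (QuantSeq). The authors used Bowtie2 for alignment and Bedtools for read counts, and quantile-normalized these counts in edgeR, and the build mm10 is taken from the submitters' processing notes. Annotation, strand handling and the treatment of multiply matching reads are not given in the sources used here. The deposited log2 values were formed after adding 1 to each normalized count, for 23282 rows (23238 distinct symbols). Groups were read from the sample titles.

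Whole reads were rebuilt by fitting 1 size factor per library and a dispersion of 0.339 to a negative binomial quantile map, which matched 100% of values within 0.0006 on the log2 scale. From 94.9% to 96.2% of values per library fixed a single read count and the rest are approximate. The method was tested on simulated data. Log2 differences were taken between deposited values, which understates changes of low genes. Intervals are 95% Clopper-Pearson intervals with the fitted size factors, and a count of 0 allows up to 3 reads. No molecular identifiers are mentioned, so that counting error alone is covered by intervals and floors. With 1 library per group no test was made. The rule for naming genes was to give values for every collagen gene at a normalized read count of 16 or more in a library, the rest by counts and ranges, and up to 4 changed members of each other list. The members, lists and comparisons were chosen with earlier results of these data known. Colgalt2, Itgb1, Lama2, Tll2, Tgfb1 and single marker genes were named after their values were seen. Alternatives were pseudocounts of 0.5 and 4, no minimum or 16, a fold of 1.5 or 4, and total count or median of ratios scaling. R 4.3.3, Python 3.11.15, numpy 2.4.6, pandas 2.3.3, scipy 1.17.1 and matplotlib 3.10.9 were used. Positions are from RefSeq (GRCm38.p6) and strands from GENCODE M21.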

Additional observations from a re-analysis of the deposited data

Results flagged for a closer look

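For 7 collagen genes the exercise effect had opposite directions past 2-fold in healthy and in tumor-bearing mice, and this is what drew attention to them. They are 63.6% of the 11 collagen genes changed in both comparisons, against 51.6% of the 1307 such rows of the whole table. With so few genes that share is near the background, so the count of opposite directions does not by itself set collagen genes apart. By direction, 6 of the 11 were lower and then higher, against 356 of the 1307 rows. The reverse was seen in 1 of the 11, against 319 of the 1307. The study chose Col1a1, Col3a1 and Col5a2 on these libraries, so their part in the 6 is not independent. The values are the log2 exercise difference in tumor-bearing mice less that in healthy mice. They were 4.74 for Col1a1, 3.99 for Col3a1, 3.70 for Col5a2, 3.39 for Col6a3, 2.94 for Col11a1 and 2.88 for Col5a1, all lower with exercise in healthy mice and higher in tumor-bearing mice. For Col11a1 the counting interval of the difference in tumor-bearing mice spanned 0. For Col17a1 the value was -4.69, from 0 reads in normal control against 5 in normal exercise, and 4 in cancer control against 0 in cancer exercise, and the counting intervals of both its exercise differences spanned 0.

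The tumor effect was opposite without and with exercise in Col7a1 (-2.30, the log2 tumor difference in exercised mice minus that without exercise) and in Col17a1 (-4.69). Col7a1 rests on 3, 36, 8 and 12 reads. None of these differences between effects was tested, since each effect is 1 library against another.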

How the results depend on the processing

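With exercise in healthy mice, a 4-fold threshold gave 11 changed collagen genes in place of 22 and 9 lower in place of 20, and the 2 higher became 1 with a minimum of 16 and 5 at 1.5-fold. With the tumor without exercise, the 4 higher became 1 with a minimum of 16 and 2 at 4-fold. With exercise in tumor-bearing mice, 4-fold gave 5 changed, 2 higher and 3 lower in place of 19, 12 and 7, and a minimum of 16 gave 3 lower. With the tumor in exercised mice, 4-fold gave 7 changed and 6 lower in place of 19 and 18, and the 1 higher became 3 at 1.5-fold and 3 with no minimum. These 14 of 96 recomputed counts moved by over 1.5 times, and the other 82 did not. In each, the alternative itself counts fewer or more genes. Of 480 recomputed log2 differences of single genes, 469 stayed within the counting interval, 11 did not, and 0 of those past 2-fold changed sign. Total count scaling moved the median of all rows to 0.16 for exercise in healthy mice, to -0.17 for the tumor in exercised mice, and the split of all rows there to 1685 higher and 1502 lower and to 1702 higher and 2798 lower. No paired analysis was possible because each group has 1 library. Depth limits the scarce genes, since each changed gene whose counting interval spanned 0 had at most 11 reads in either library.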
